A study of Drosophila melanogaster with 4 samples.

Results

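Sugar and amino acid transporters carry the products of digestion across membranes of gut cells, and 10 of their genes are described here: Tret1-1, Tret1-2, sut1, sut2 and sut4 for sugars, and NAAT1, slif, mnd, JhI-21 and path for amino acids. They were found as the rows of the deposited raw count table that carry these FlyBase symbols, and are 10 of its 17807 genes. RNA-seq was analysed for 4 libraries, each made from a pool of 20 to 30 whole guts dissected from females aged 7 days. The 2 WT libraries came from the yw strain and the 2 wh7 libraries from flies with a mutant wuho gene (FBgn0029857), which encodes dWdr4, the fly partner subunit of an enzyme that methylates RNA. The wh7 females carried the mutation in every tissue, and their fathers carried the mutation with a dwdr4-gfp transgene that the females themselves lacked. The mutation and any other difference between the lines cannot be told apart in these libraries.

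Glucose and other sugars enter animal cells mostly through carriers of the SLC2 family, and in flies trehalose, the main sugar of the hemolymph, has carriers of its own. Amino acids are taken up by several unrelated families, among them SLC6 carriers, which use a sodium gradient, SLC7 carriers, some of which work in a pair with a heavy chain, and SLC36 carriers. Amino acids that reach the cell activate the growth kinase complex TORC1, so such transporters are known as regulators of growth in the fat body and other fly tissues.

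The libraries held between 93603837 and 101610356 counts, and between 13.0% and 16.8% of them belonged to the 10 most abundant genes. The mutated gene wuho had normalized counts of 1463 and 1338 in WT against 2.06 and 2.80 in wh7, at least 453-fold lower when wh7 was set at a floor of 3 counts per library. Normalized counts are counts scaled to the same library size with edgeR's TMM factors. Summed markers of fat body, a tissue that lies next to the gut, were at 819001 and 1337670 normalized counts in the WT pools, against 546512 and 534083 in the wh7 pools. Of these 8 markers, 6 had lower means in wh7 and 2, Fbp1 and fit, had higher log2 fold changes than 0, with 0 called by edgeR. The 8 enteroendocrine markers summed to 45353 and 43348 in WT and to 23303 and 24815 in wh7, and all 8 had lower means in wh7. For all 8 the libraries of the genotypes did not overlap, where 22.9% of all genes tested were lower without overlap. Of the 8, edgeR called 2, AstA and AstC, against 0.482% of all genes. The 7 enterocyte markers summed to between 3895590 and 5272140 in every library, with 4 higher and 3 lower in wh7 in mean and 0 called by edgeR. For 6 of these 7 the libraries of the genotypes did not overlap, against 46.7% of all genes tested. The 7 ovary and germline markers summed to 170 and 103 in WT and to 228 and 196 in wh7, with bam at 0 in every library. Of the wh7 sums, Cp36 gave 75.2 in replicate 1 and 0 in replicate 2. Of the 3 that could be tested, vas and otu had higher means in wh7 and Vm26Aa a lower mean, with 0 called. None of these 3 overlapped between genotypes, where 46.7% of all genes tested did not. For vas the nearest libraries were at 22.59 in WT and 22.65 in wh7. The part of these markers in the levels of the transporter genes was not tested. In RNA of whole guts, fewer cells of a type and less RNA per cell cannot be told apart.

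None of the transporter genes differed between wh7 and WT beyond the threshold. Of the 10 genes, 9 passed the filter on low counts and were tested, and sut4 had no counts. With edgeR's quasi-likelihood test, 0 of these 9 had an adjusted p under 0.05, where 0.482% of all 10795 genes tested passed it. DESeq2, which called 7.96% of all genes, and limma-voom also called 0 of them. Without adjustment, 1 of the 9, JhI-21, had p under 0.05 and was lower in wh7. Of all genes tested, 14.5% had such a p, with 7.32% of all genes lower and 7.23% higher in wh7. The libraries of the genotypes did not overlap for 5 of the 9 genes, a share of 55.6%, against a background of 46.7% of all genes. Of these 5, Tret1-1, NAAT1 and JhI-21 were lower in both wh7 libraries and Tret1-2 and path were higher, where 22.9% of all genes were lower and 23.8% higher without overlap. The median log2 fold change of wh7 against WT was -0.01 for the 9 genes and -0.02 for all genes tested.

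**Figure D1:**
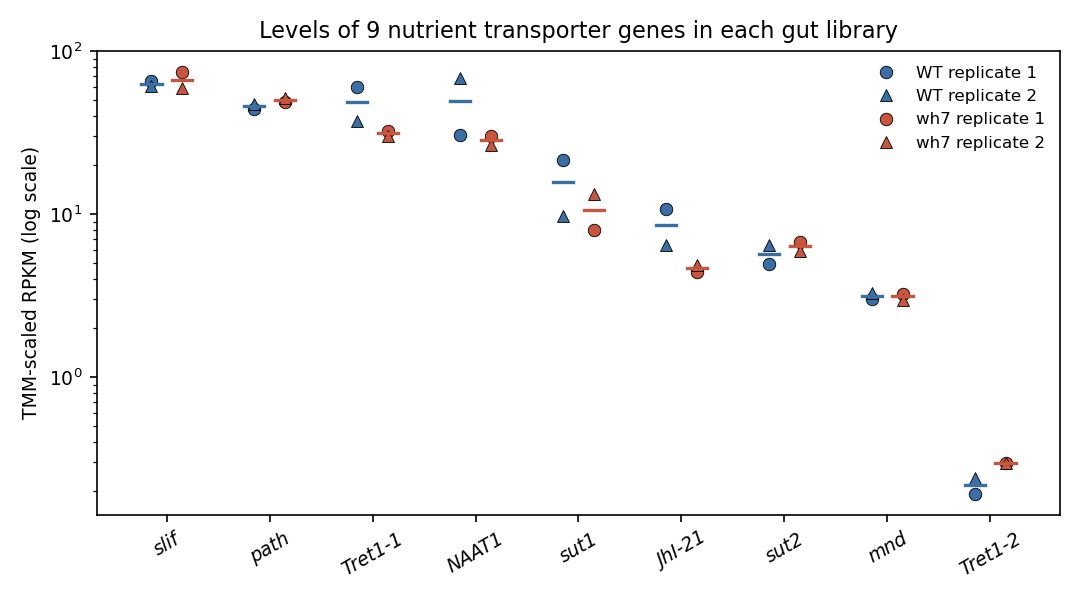
Level of each of the 9 transporter genes with counts, in each library, as TMM-scaled RPKM (counts per kilobase of exon, scaled to library size) on a log scale; circles and triangles are replicates 1 and 2, and horizontal lines are the means of each genotype (n = 2). The WT libraries lie apart for Tret1-1, NAAT1, sut1 and JhI-21, while slif, path and mnd vary little.

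Levels can be compared between genes only per length, and for this TMM-scaled RPKM was computed, the count per kilobase of exon in the BDGP6.54 annotation after scaling to library size. On the RPKM scale slif had the highest level, 65.0 ± 7.00 (SD over all 4 libraries), higher than path in every library. The genes path, Tret1-1 and NAAT1 followed with means of 48.0, 40.1 and 39.1, and the ranges of neighbours among them overlapped. A lower tier held sut1 at 13.1, JhI-21 at 6.65 and sut2 at 6.03, whose neighbouring ranges also overlapped. The leucine carrier mnd came next at 3.14 and Tret1-2 after it at 0.26, each apart from its neighbours in all 4 libraries. Among all genes tested, slif stood at percentile 90.1 and Tret1-2 at percentile 10.1. The 10 genes together held 0.0748% and 0.0671% of all counts in WT, against 0.0616% and 0.0588% in wh7.

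Tret1-1 (FBgn0050035, chromosome arm 2R) encodes a carrier that moves trehalose along its gradient, and was the most abundant of the sugar transporters described. It had 19570 and 12095 normalized counts in WT replicates 1 and 2, and 10555 and 9764 in wh7 replicates 1 and 2. Both wh7 libraries were below both WT libraries, but WT replicate 2 lay nearer to wh7 than to the other WT library and was 1.15-fold above the nearest wh7 library. The log2 fold change was -0.64 (SE 0.27, 95% interval -1.36 to 0.08), with an adjusted p of 0.391 in edgeR's quasi-likelihood test. Without WT replicate 2 the log2 fold change was -0.95 with an adjusted p of 0.0299, and without WT replicate 1 it was -0.25. Levels within WT spanned a 1.62-fold range, against 1.08-fold within wh7.

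Its neighbour on the same arm, Tret1-2 (FBgn0033644), encodes a close homolog. It had 31.4 and 39.4 normalized counts in the WT pools, against 48.4 and 48.5 in the wh7 pools. The wh7 libraries were both higher, at counts so low that the interval of the log2 fold change of 0.45 (SE 0.42) ran from -0.67 to 1.57 (adjusted p = 0.699, edgeR's quasi-likelihood test). Of the counts of this pair of genes, Tret1-2 took 0.16% and 0.32% in WT and 0.46% and 0.49% in wh7, so that nearly every count came from Tret1-1 in each library. How the counting treated any reads shared by such homologs is not given in the sources used here.

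The genes sut1 (FBgn0028563) and sut2 (FBgn0028562) lie side by side on 2R and encode sugar transporters of the SLC2 family. For sut1, the WT libraries had 5009 and 2246 normalized counts and the wh7 libraries 1848 and 3072. WT replicate 1 was the highest library, and WT replicate 2 lay between the wh7 libraries, so the genotypes overlapped. The log2 fold change of sut1 was -0.56 (SE 0.48, 95% interval -1.84 to 0.72, adjusted p = 0.676, edgeR's quasi-likelihood test), and without WT replicate 1 it reversed to 0.13. Of its exon bases, 7.59% overlap slv, a gene on the opposite strand, and the use of strand in counting is not given. The gene slv itself had a log2 fold change of 0.00 (SE 0.23).

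Its neighbour sut2 varied less between the libraries. It had 764 and 996 normalized counts in the WT pools, against 1046 and 917 in the wh7 pools, and the genotypes overlapped. Its log2 fold change was 0.16 (SE 0.21, 95% interval -0.40 to 0.71, adjusted p = 0.792, edgeR's quasi-likelihood test), and it reversed to -0.02 without WT replicate 1. The ratio of sut1 to sut2 counts was 6.55 and 2.25 in WT and 1.77 and 3.35 in wh7, so that the WT libraries were the highest and the third highest. The gene sut4 (FBgn0028560), which lies elsewhere on 2R, had 0 counts in each of the 4 libraries, so that up to 3 counts per library could have gone unseen.

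Summed over the 5 sugar transporter genes, of which Tret1-1 made up most, normalized counts were 25374 and 15376 in WT and 13498 and 13801 in wh7. WT replicate 1 stood far above the other 3 libraries, which lay close together. Summed markers of Malpighian tubule, the excretory tubules attached to the gut, were also highest in that library. The sums were 30526 and 16848 normalized counts in the WT pools, against 21228 and 19196 in the wh7 pools. Uro, CapaR, salt, Irk1 and ZnT35C were highest there, salt only narrowly, with 2515 against 2486 in wh7 replicate 1. Oatp58Dc went the other way, with 2683 and 1971 in WT and 3329 and 3457 in wh7. The part of these markers in the levels of Tret1-1 and sut1 was not tested.

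**Figure D2:**
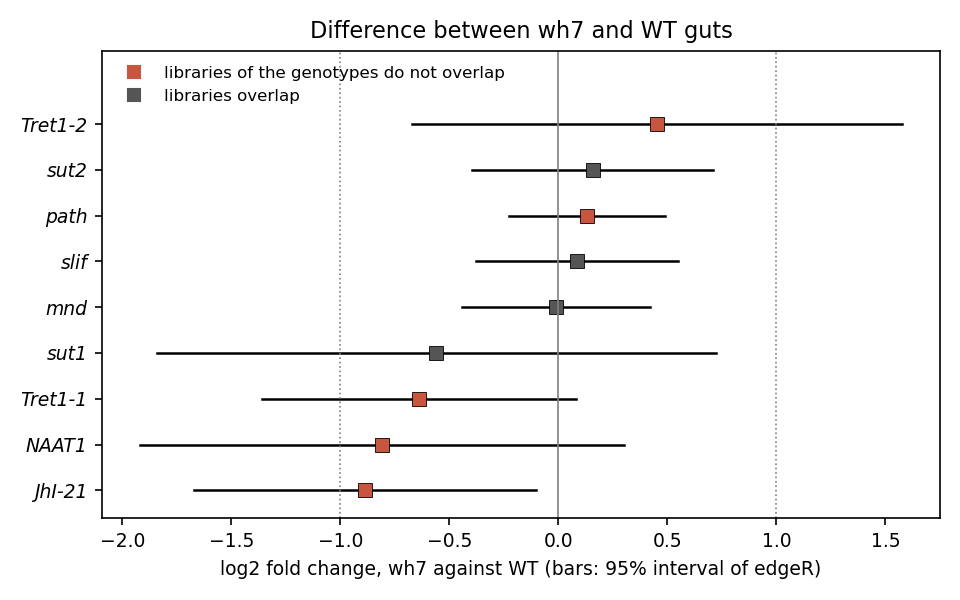
Log2 fold change of wh7 against WT for the 9 genes tested (squares), with the 95% interval from edgeR's quasi-likelihood fit (lines) and dotted lines at a 2-fold change; red squares mark genes whose libraries do not overlap between genotypes. The intervals of sut2, path, slif and mnd lie inside a 2-fold change, and only that of JhI-21, from -1.67 to -0.10, lies wholly to one side of 0.

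Among the amino acid transporters, NAAT1 (FBgn0029762, chromosome X) encodes an SLC6 carrier for a broad range of neutral amino acids. It had 7351 and 16416 normalized counts in WT replicates 1 and 2, and 7237 and 6346 in wh7 replicates 1 and 2. WT replicate 2 stood alone, more than any other library, while WT replicate 1 was only 1.02-fold above the nearest wh7 library. The log2 fold change was -0.81 (SE 0.41, 95% interval -1.92 to 0.30), with an adjusted p of 0.478 in edgeR's quasi-likelihood test. Without WT replicate 1 it was -1.27 with an adjusted p of 0.03, and without WT replicate 2 it was -0.12. WT replicate 2 was also the library with the highest sum of fat body markers, 1337670 normalized counts. The markers apolpp, Yp1, Yp2, Yp3 and bmm were highest there, but Lsp2 and fit were highest in WT replicate 1 and Fbp1 in wh7 replicate 2. The part of these markers in the level of NAAT1 was not tested.

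JhI-21 (FBgn0028425, chromosome arm 2L) encodes an SLC7 light chain that carries leucine, and showed the lowest log2 fold change of the 9 genes. It had 2457 and 1470 normalized counts in the WT pools, against 1006 and 1116 in the wh7 pools. Both wh7 libraries were below both WT libraries, with a 1.32-fold gap between the nearest ones, the widest gap of the 5 genes that did not overlap. The log2 fold change was -0.89 (SE 0.29, 95% interval -1.67 to -0.10), with an unadjusted p of 0.0342 and an adjusted p of 0.294 in edgeR's quasi-likelihood test, and DESeq2 gave an adjusted p of 0.104. Without WT replicate 2 it was -1.22 with an adjusted p of 0.0274, and without WT replicate 1 it was -0.47. Of its exon bases, 12.5% overlap PLCXD on the opposite strand, and PLCXD itself had 365 and 737 normalized counts in the WT pools, against 521 and 402 in the wh7 pools, with its highest level in the WT library where JhI-21 was lower.

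The SLC7 light chain mnd (FBgn0002778, 3L), which like JhI-21 carries leucine and is known for a role in leucine sensing by insulin-producing cells, varied little between the libraries. It had 741 and 799 normalized counts in the WT pools, against 796 and 732 in the wh7 pools, and the genotypes overlapped. Its log2 fold change was -0.01 (SE 0.16, 95% interval -0.44 to 0.42, adjusted p = 0.988, edgeR's quasi-likelihood test), and leaving out a library moved it between -0.08 and 0.05. The ratio of JhI-21 to mnd counts was 3.32 and 1.84 in WT and 1.26 and 1.52 in wh7, lower in both wh7 libraries. The heavy chain that pairs with such light chains, CD98hc, had a log2 fold change of -0.05 with an adjusted p of 0.901 in edgeR's quasi-likelihood test.

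The cationic amino acid transporter slif (FBgn0037203, 3L), which in the fat body supports TOR signalling and the growth of the whole animal, was the most abundant of the 10 genes per length. It had 19669 and 18342 normalized counts in the WT pools, against 22526 and 17808 in the wh7 pools. The wh7 libraries were the highest and the lowest, with both WT libraries between them. The log2 fold change was 0.09 (SE 0.17, 95% interval -0.38 to 0.55, adjusted p = 0.872, edgeR's quasi-likelihood test), and it reversed to -0.10 without wh7 replicate 1.

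The SLC36 transporter path (FBgn0036007, 3L), another regulator of growth through TOR, varied least among the abundant genes. It had 13579 and 14537 normalized counts in the WT pools, against 14889 and 15934 in the wh7 pools. Both wh7 libraries were above both WT libraries, by 1.02-fold between the nearest ones. Its log2 fold change of 0.13 (SE 0.13, 95% interval -0.22 to 0.49, adjusted p = 0.723, edgeR's quasi-likelihood test) stayed between 0.08 and 0.18 with each library left out. The ratio of slif to path counts was 1.45 and 1.26 in WT and 1.51 and 1.12 in wh7, with the genotypes overlapping. The 5 amino acid transporter genes together summed to 43796 and 51565 normalized counts in the WT pools, against 46454 and 41936 in the wh7 pools, also overlapping.

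The size of change these libraries could leave unseen differed between the genes. The 95% intervals of 4 genes, sut2, mnd, slif and path, lay inside a 2-fold change in either direction. Those of the other 5 reached beyond it, to a log2 fold change of -1.36 for Tret1-1, -1.84 for sut1, -1.92 for NAAT1 and -1.67 for JhI-21, and to 1.57 for Tret1-2. Replicates differed more within WT than within wh7. For the 8 transporter genes that averaged 100 or more normalized counts, the median absolute log2 difference between replicates was 0.54 in WT and 0.17 in wh7, and over 8904 genes of such levels it was 0.30 and 0.13. Of these 8 genes, sut1 and NAAT1 differed over 2-fold between the WT libraries, by 2.23-fold each and in opposite directions, and 0 did so in wh7.

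**Figure D3:**
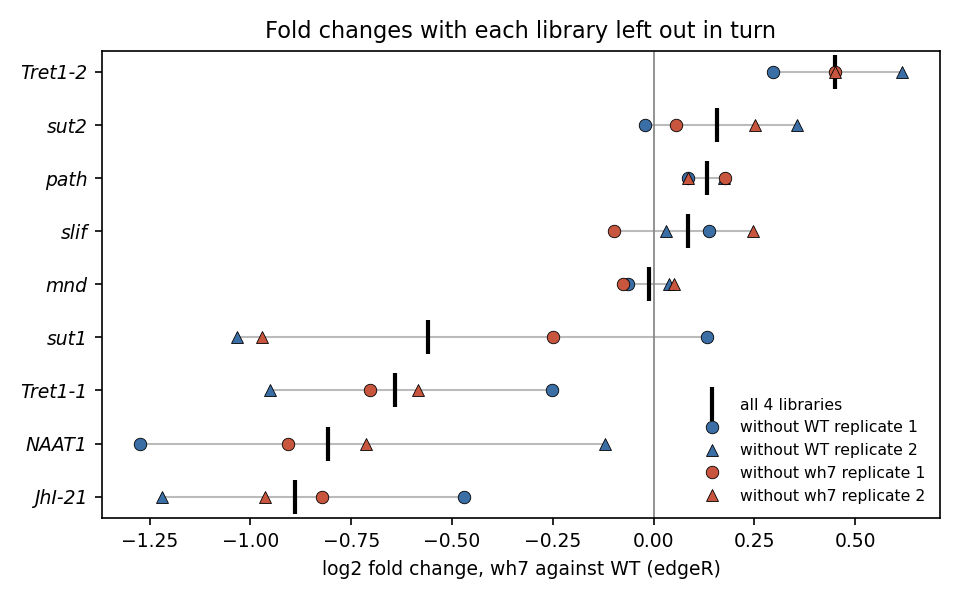
Log2 fold change of wh7 against WT for each of the 9 genes with all 4 libraries (black bars) and with each library left out in turn (blue, a WT library; red, a wh7 library; circles, replicate 1; triangles, replicate 2). For NAAT1, Tret1-1, JhI-21 and sut1 the choice of WT library moves the value most, for NAAT1 from -1.27 to -0.12.

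Other genes of the same families give the setting of these values. In none of the 6 lists examined did edgeR's quasi-likelihood test call a gene. Of 21 other sugar transporters tested, 3 higher and 4 lower genes had an unadjusted p under 0.05 in edgeR's quasi-likelihood test. This was a share of 33.3%, against 14.5% of all genes tested. DESeq2 called 3 of the list, where it called 7.96% of all genes, and the median log2 fold change was -0.24. The 3 higher genes, the 3 that DESeq2 called and the share all include sut3, so they are not used as support. The neighbour of sut2 on the far side from sut1, sut3, had 0 counts in both WT libraries and 271 and 169 normalized counts in wh7. This was at least 68.8-fold higher in wh7 when WT was set at 3 counts per library. Because sut3 passed the filter on low counts only through the wh7 libraries, its p-values are not used as support. It was not tested under a filter of at least 10 counts in every library. Without wh7 replicate 1 or 2 the bound for sut3 was 52.8-fold or 84.7-fold. The list's median was also -0.24 with sut3 at its bound of 68.8-fold, and the median ran from -0.52 without WT replicate 2 to 0.02 without WT replicate 1.

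Of the other sugar carriers named by the rule, CG6484 had 15801 and 29242 normalized counts in the WT pools, against 54225 and 77496 in the wh7 pools. Its log2 fold change was 1.55 (SE 0.38, adjusted p = 0.193, edgeR's quasi-likelihood test), and both wh7 libraries were above both WT libraries, as they were for CG14606 with a log2 fold change of 0.72 (SE 0.20). Without WT replicate 2, CG6484 and CG14606 were past the threshold, with adjusted p of 0.0304 and 0.0473 in edgeR's quasi-likelihood test, and without any other library they were not. DESeq2 gave CG6484 an adjusted p of 0.00188 and CG14606 one of 0.0735. CG7882, CG8837 and the glucose transporter gene Glut1 had log2 fold changes of -0.90 (SE 0.25), -0.75 (SE 0.24) and -0.65 (SE 0.15). Their wh7 libraries were below the WT libraries, and the lowest adjusted p among these 3 genes was 0.168, that of Glut1, in edgeR's quasi-likelihood test. DESeq2 gave CG7882, CG8837 and Glut1 adjusted p of 0.0513, 0.186 and 0.0237, so of these 3 it called Glut1 only.

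In the SLC7 and SLC3 families, 0 of 7 other genes tested had an unadjusted p under 0.05 in edgeR's quasi-likelihood test, against 14.5% of all genes. DESeq2 called 0, and the median log2 fold change was -0.32, between -0.58 without wh7 replicate 1 and -0.10 without wh7 replicate 2. In the SLC36 and SLC38 families, to which path belongs, the median was -0.22 and 1 of 7 other genes (14.3%) had such a p. This was CG8785, with 26402 and 27776 normalized counts in the WT pools, against 9703 and 10456 in the wh7 pools. Its libraries lay close together within each genotype and far apart between them, with a log2 fold change of -1.43 (SE 0.14) and an adjusted p of 0.051 in edgeR's quasi-likelihood test. DESeq2 gave CG8785 an adjusted p of 2.6e-13, and with upper quartile scaling, with a filter of at least 10 counts in every library, or without either WT library it was past the threshold in edgeR as well. It was not past it with DESeq2's size factors, with no filter or with limma-voom (adjusted p of 0.0521, 0.0653 and 0.055), with the replicate block (0.185) or without wh7 replicate 1 or 2 (0.496 and 0.557).

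In SLC6, the family of NAAT1, 12 other genes were tested. Of these, 2 (16.7%) had an unadjusted p under 0.05 in edgeR's quasi-likelihood test, against 14.5% of all genes. DESeq2 called 1 of the 12, where it called 7.96% of all genes, and the median log2 fold change was 0.26. The 2 genes were CG43066 and CG15279, both higher in both wh7 libraries, with log2 fold changes of 0.89 (SE 0.29) and 0.82 (SE 0.19). Their adjusted p were 0.292 and 0.175 in edgeR's quasi-likelihood test. Of 5 peptide and glutamate transporters, 1 (20%), the oligopeptide carrier gene yin, had an unadjusted p under 0.05 in edgeR's quasi-likelihood test. Its log2 fold change was -0.77 (SE 0.16), with an adjusted p of 0.149 in that test. DESeq2 called yin (adjusted p = 0.011) and no other gene of this list. Among 20 genes of TOR and amino acid sensing, 0 had an unadjusted p under 0.05 in edgeR's quasi-likelihood test, DESeq2 called 0, and the median log2 fold change was 0.06.

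**Figure D4:**
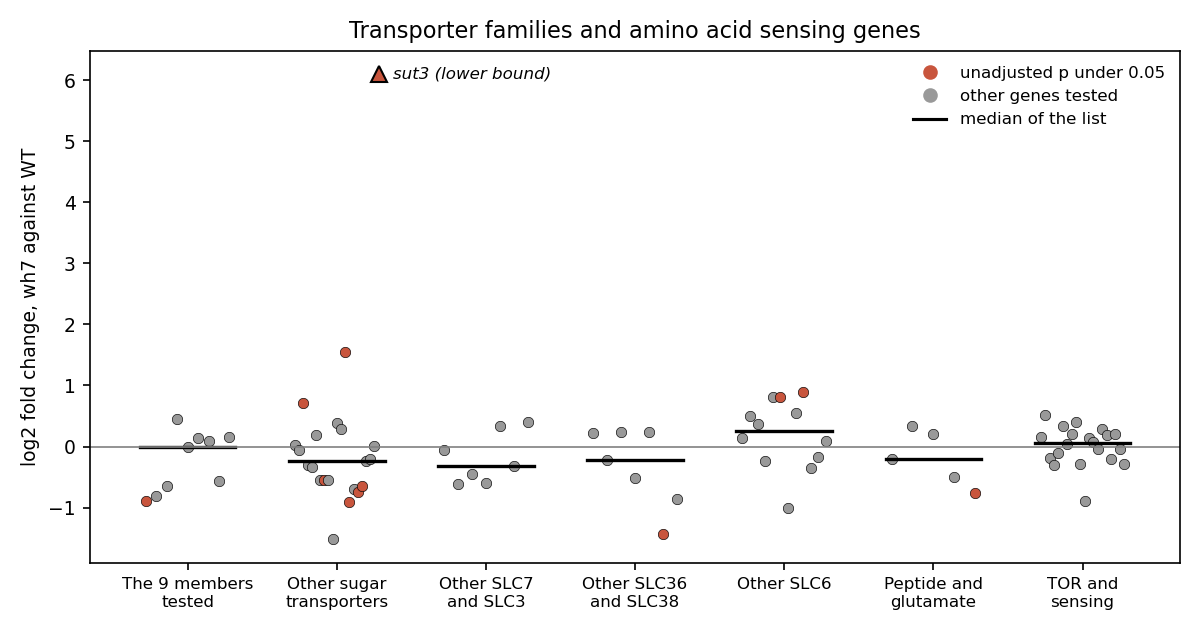
Log2 fold change of wh7 against WT for the transporter genes described and for 6 lists of related genes, with 1 point per gene tested; red points have an unadjusted p under 0.05 in edgeR's quasi-likelihood test, black lines are medians, and sut3, with 0 counts in WT, is drawn as a triangle at its lower bound. The medians lie between -0.32 and 0.26, and CG8785 is the lowest red point, at -1.43.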

How the data were processed

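The authors trimmed reads with Trimmomatic 0.36, aligned them with HISAT2 and quantified them with StringTie 2.1.4. The deposited values used are raw counts per gene. The genome build and the use of strand are not given in the sources used here. The authors' own comparison of the genotypes, deposited as log2 fold changes and p-values with rounded normalized counts, was not used.

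Genes kept by edgeR's filterByExpr (10795 of 17807) were scaled by TMM and compared by the quasi-likelihood test of edgeR 4.0.16 in R 4.3.3, with genotype as the only term and Benjamini-Hochberg adjustment over the whole set. Genes with an adjusted p under 0.05 were called. Intervals are those of single genes and were not adjusted. With 2 libraries against 2, the smallest two-sided p of an exact permutation test is 0.33, and none is given. Replicates are separate pools of guts. The p-values set the difference between genotypes against the spread between these pools, estimated partly from other genes. DESeq2 1.42.0, limma-voom (limma 3.58.1), other scalings and filters, a replicate block and leaving out each library were alternatives. Symbols were matched for 17710 of the 17807 identifiers. Exon lengths, chromosome arms, neighbours and overlaps were taken from BDGP6.54.

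The transporter genes and all lists were chosen with earlier results of these data known. From each other list, genes with an adjusted p under 0.05 were named and, of the rest with a mean of at least 50 normalized counts and an unadjusted p under 0.05, the 3 highest and 3 lowest by log2 fold change. CD98hc, slv and PLCXD were named outside this rule, as a partner and as overlapping genes. No sequences are printed.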

Additional observations from a re-analysis of the deposited data

How the results depend on the processing

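With 2 libraries per genotype, calls depended on single libraries. The number of genes called was 52 of all genes tested, against 30 with no filter on low counts, 27 with limma-voom, 859 with DESeq2, 0 with a replicate block and between 0 and 921 with 1 library left out. Deviations of same-numbered libraries correlated at -0.2 over 8904 genes. The labels do not say whether same-numbered libraries were handled together, and 1 such correlation cannot decide it. A crossed pairing, added after seeing the data, called 99 genes and 0 transporter genes, as the replicate block also called 0 of them. With 2 libraries per genotype the crossed pairing reverses the sign of this correlation by construction, so its number of calls does not decide it either. Of the 9 transporter genes, 0 were called under the other scalings, filters and tools. With 1 library left out some were called (NAAT1 without WT replicate 1, Tret1-1 and JhI-21 without WT replicate 2). The fits without a WT library called more of all genes as well. The direction reversed with 1 library left out for sut1 (-1.03 to 0.13), sut2 (-0.021 to 0.35), slif (-0.10 to 0.25) and mnd (-0.076 to 0.050), all log2 fold changes. DESeq2, which called 7.96% of all genes, called 3 other sugar transporters, sut3 among them. It also called 1 gene each of the SLC36 and SLC38, SLC6, and peptide and glutamate lists. Upper quartile scaling or at least 10 counts in every library called 1 gene of the SLC36 and SLC38 list. With 1 library left out, between 0 and 4 other sugar transporters, 0 and 2 SLC36 and SLC38 genes, 0 and 1 SLC6 genes, and 0 and 4 TOR and amino acid sensing genes were called. The median log2 fold change of the SLC36 and SLC38 list, -0.22, was 0.15 with limma-voom and 0.14 with the replicate block. With 1 library left out, list medians ran from -0.52 to 0.025 (other sugar transporters), -0.58 to -0.10 (SLC7 and SLC3), -0.18 to 0.11 (SLC36 and SLC38), 0.13 to 0.59 (SLC6), -0.45 to -0.013 (peptide and glutamate) and -0.018 to 0.12 (TOR and sensing). A fit without 1 library leaves 1 sample in a genotype, which is assumed to vary like the other.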
